A study of Mus musculus with 6 samples.

Results

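The Hoxa genes described here are 9 neighbours of the mouse Hoxa cluster, Hoxa2, Hoxa3, Hoxa4, Hoxa5, Hoxa6, Hoxa7, Hoxa9, Hoxa10 and Hoxa11, taken by name from a table of 55487 genes and read in every library. They were measured by RNA-seq in 6 libraries of GFP+ marrow cells from femora and tibiae of mice that had received leukemia cells, 3 labelled PBS and 3 labelled pIpC. The donor cells of both groups were CD45.2(+) C57BL/6 cells that carried Mx1-Cre, Brd9 fl/fl and MLL-AF9 (labelled MA9), a fusion of the MLL histone methyltransferase with AF9, delivered as a retroviral cDNA with a GFP marker. The recipients were CD45.1(+) CD45.2(-) and irradiated. The labels give 2 fractions of 450 cGy, whereas the study's methods give 450 cGy for recipients of leukemia cells. From the day after transplant one group received PBS and the other 20 mg/kg of pIpC, a double-stranded RNA mimic, every other day for 3 injections, and the labels place cell preparation 10 days after injection. pIpC induces interferon, and the interferon-driven Mx1 promoter then switches on Cre in blood cells and in other tissues. No group without Cre was given pIpC, so pIpC itself and the deletion of Brd9 cannot be told apart. The study's methods describe c-Kit+ marrow cells, whereas the labels describe GFP+ cells. The labels do not say whether the 3 libraries of a group came from separate recipients, so the p-values measure the spread between these libraries, which may be technical.

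HOX genes encode transcription factors that bind DNA through a homeodomain, often together with TALE partners of the MEIS and PBX families. Along a cluster the genes at one end are used in anterior structures of the embryo and those at the other end in posterior structures. In blood, the central and posterior Hoxa genes are active in stem and progenitor cells and are turned down as cells mature. MLL fusion proteins bind the cluster and hold it active, and Hoxa9 with Meis1 is sufficient to transform mouse marrow progenitors.

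The 9 members occupy 83.4 kb of chromosome 6, from 52162417 to 52245810 on GRCm38, and all 9 lie on the minus strand. GENCODE release M21 places Hoxa9 from 52223100 to 52231089, Hoxa10 from 52231197 to 52240854 and Hoxa11 from 52242106 to 52245810.

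The RefSeq promoter windows, from 250 bases before to 50 after a start site, were available for 8 of the 9 members. They are printed for the 4 genes with the highest levels per kilobase in the PBS libraries. RefSeq's build is GRCm38.p6. Matches on either strand to 5 short motifs are in capitals. They were the E-box with the letters CACGTG, the box with the letters CCAAT, and the TATA box with the letters TATAAA. The others were a motif of MEIS proteins, spelled TGACAG, and a joint motif of HOX and PBX proteins, spelled TGATTTAT. For Hoxa10, which had 2 windows, the one with the lower coordinates is shown. The last 50 bases of the Hoxa7 and Hoxa3 windows are in no M21 transcript of those genes.
Hoxa5, chr6:52204538-52204837, minus strand: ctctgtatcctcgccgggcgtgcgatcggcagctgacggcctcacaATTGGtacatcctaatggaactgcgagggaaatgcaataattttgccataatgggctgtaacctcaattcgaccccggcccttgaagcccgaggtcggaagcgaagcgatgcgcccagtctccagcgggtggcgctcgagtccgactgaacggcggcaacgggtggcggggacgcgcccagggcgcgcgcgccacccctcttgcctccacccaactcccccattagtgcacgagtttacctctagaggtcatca
Hoxa7, chr6:52218524-52218823, minus strand: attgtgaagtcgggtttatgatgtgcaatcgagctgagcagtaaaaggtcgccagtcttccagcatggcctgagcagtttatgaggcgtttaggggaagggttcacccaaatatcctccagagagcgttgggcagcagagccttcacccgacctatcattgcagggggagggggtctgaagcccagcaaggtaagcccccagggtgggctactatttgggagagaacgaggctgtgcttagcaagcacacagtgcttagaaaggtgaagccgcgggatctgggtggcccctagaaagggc
Hoxa9, chr6:52227321-52227620, minus strand: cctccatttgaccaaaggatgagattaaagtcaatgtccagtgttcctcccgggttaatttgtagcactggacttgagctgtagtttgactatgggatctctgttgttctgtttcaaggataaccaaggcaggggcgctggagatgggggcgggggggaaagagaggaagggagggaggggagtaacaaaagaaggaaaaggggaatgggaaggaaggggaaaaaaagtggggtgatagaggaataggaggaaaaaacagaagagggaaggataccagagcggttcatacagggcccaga
Hoxa10, chr6:52234890-52235189, minus strand: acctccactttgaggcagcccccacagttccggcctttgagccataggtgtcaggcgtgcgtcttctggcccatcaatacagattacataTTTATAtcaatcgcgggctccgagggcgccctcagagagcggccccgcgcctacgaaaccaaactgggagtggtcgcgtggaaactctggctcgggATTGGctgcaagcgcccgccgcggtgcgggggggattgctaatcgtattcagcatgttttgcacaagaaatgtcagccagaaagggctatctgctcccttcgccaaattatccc

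The E-box and the joint HOX and PBX motif were found in 0 of the 9 member windows, against 7.2% and 1.0% of all 32841 mouse windows of this length. The CCAAT box was found in 4 of 9 windows, against 37.4% of all, the TATA box in 1 of 9, against 13.6%, and the MEIS motif in 2 of 9, against 19.2%. The GC-rich motif CCGCC, which is left in lower case, was found in 6 of 9, against 48.9% of all. The Hoxa2 window held 4 CCAAT boxes and a MEIS motif that abuts one of them. CpG dinucleotides numbered from 4, in the Hoxa9 window, to 29, in the Hoxa5 window, with a median of 15.0 over the member windows and 7.0 over all windows. A match of letters is a description of the window and not a site at which a factor was seen.

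Facts of the whole series bear on every value below. The libraries held 19277439 to 22378154 reads in the PBS group and 22348517 to 23586722 in the group labelled pIpC. Brd9, the targeted gene, was at 1927, 1946 and 1632 normalized counts in PBS and at 2036, 2263 and 2011 in pIpC, so it was not lower in the libraries labelled pIpC (limma, log2 fold change 0.20 ± 0.13 (SE), adjusted p = 0.259; exact 2-sided permutation test p = 0.1, the smallest that 3 against 3 allows). Directions are therefore given by the label. Cre removes only some exons of Brd9 in the study's design, those that encode the bromodomain. The counts are for whole genes, so the loss of those exons was not tested. PBS 3 stood apart from the other PBS libraries, with a median absolute log2 difference of 0.604 over the 15020 tested genes, against 0.352 for PBS 1 and 0.316 for PBS 2, each set against the mean of the other libraries of its group. In PBS 3 the 25% of genes with the longest exons lay at a median of -0.545 and the 25% with the shortest at 0.728, and in the libraries labelled pIpC the median absolute differences were 0.115 to 0.156. Xist, the RNA that coats the inactive X chromosome, was at 15.8 to 72.9 in PBS and at 18429 to 26173 in pIpC. A difference between the groups in the sex or source of the cells was not tested. By these labels it cannot be told apart from pIpC or the deletion of Brd9.

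All 9 members had lower counts in each of the 3 libraries labelled pIpC than in any of the 3 PBS libraries. Values are normalized counts, which are read counts divided by a size factor for each library. Of the 15020 tested genes, 26.3% were separated in this way and direction. The limma test was run on log2(normalized count + 1) for genes whose mean over the 6 libraries reached 10, and a gene was called at an adjusted p below 0.1. By that test 45.3% of the tested genes were called, 20.4% as lower and 25.0% as higher in pIpC. Of these calls 55.1% were higher, and with quantile normalization, which set the median log2 fold change of all genes at -0.12, 44.3% were. Of the members, 8 reached the filter and 8 of 8 were called lower, with a median log2 fold change of -4.22, beside 0.01 over all tested genes. Hoxa2, Hoxa4 and Hoxa6 had pIpC means under 10 and reached the filter only through the PBS libraries, so their presence among the tested genes already required a difference. In RNA of a cell mixture, fewer cells of a type and less RNA per cell cannot be told apart.

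Summed over the 9 members, the normalized counts were 9922, 9982 and 10539 in PBS 1 to 3 and 442, 551 and 490 in pIpC 1 to 3. The members took 0.0439% to 0.0512% of all reads in the PBS libraries and 0.00191% to 0.00241% in the libraries labelled pIpC. In normalized counts the summed output of the members was thus even within each group, while their share of reads was lowest in PBS 3 of the PBS libraries.

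**Figure D1:**
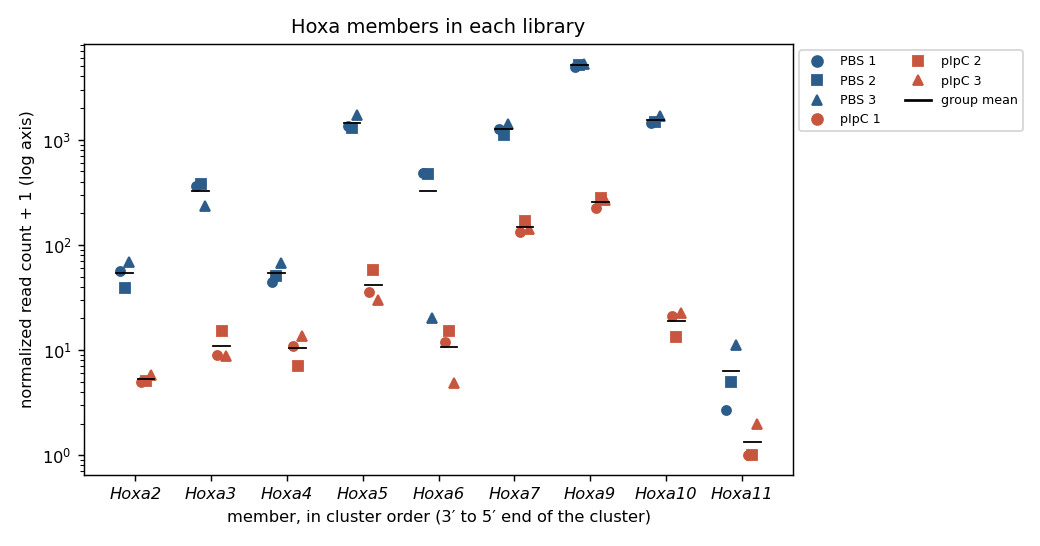
Normalized read count plus 1, on a log axis, of each Hoxa member in the 3 PBS libraries (blue) and the 3 libraries labelled pIpC (red), with a bar at each group's mean. Every pIpC point lies below every PBS point of the same gene, and PBS 3 lies far below PBS 1 and PBS 2 for Hoxa6.

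The posterior genes carried most of the reads. Hoxa9, the member best known for driving acute myeloid leukemia, was at 4917, 5172 and 5301 normalized counts in PBS and at 224, 276 and 269 in pIpC. The groups lay far apart, and each varied little within itself. The mean was 5130 ± 195 (SD, n = 3) in PBS and 256 ± 28.4 in pIpC, or 4.99% of the PBS mean (log2 fold change -4.32 ± 0.13 (SE), limma adjusted p = 1.27e-05). Of the 15020 tested genes, 173 had a log2 fold change as low as that of Hoxa9 or lower, Hoxa9 among them.

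Hoxa10, a posterior gene that blocks myeloid and lymphoid maturation when forced on, showed the deepest fall of the members. Its counts were 1447, 1473 and 1693 in PBS and 20.0, 12.3 and 21.3 in pIpC. The pIpC libraries retained 1.16% of the PBS mean (1537 ± 135 against 17.8 ± 4.87, SD, n = 3). On the log2 scale this was a difference of -6.38 ± 0.24 (SE; limma adjusted p = 1.76e-05), and 47 tested genes, Hoxa10 included, were as low or lower. Hoxa10 was thus further from its PBS level than Hoxa9, and the ratio of the pair within libraries is compared with the other neighbours after the single genes.

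Hoxa11, used in limb and uterus, was near absent throughout. It was listed at 1.7, 4.0 and 10.2 normalized counts in PBS and at 0, 0 and 1.0 in pIpC, and its mean was below the filter. These are 15 reads over the PBS libraries and 1 over those labelled pIpC, a ratio of 0.0606 with a 95% counting interval of 0.0014 to 0.39 (exact binomial, counting error only). Of its exon bases, 35.0% are shared with Hoxa11os on the opposite strand, and the labels describe an unstranded kit where the study's methods describe a stranded one, so it is not settled whether reads of both can be told apart.

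Among the central genes, Hoxa5 and Hoxa7 were the most abundant. Hoxa5, which influences the choice between myeloid and erythroid fates, was at 1354, 1280 and 1722 in PBS and at 34.9, 57.2 and 29.0 in pIpC. Its level in pIpC was 2.78% of that in PBS (log2 fold change -5.18 ± 0.28 (SE), limma adjusted p = 3.95e-05). No exon base of Hoxa5 is shared with another gene in the annotation. Reads of an annotated overlapping transcript therefore do not enter its count.

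Hoxa7 was at 1267, 1121 and 1425 in PBS and at 131, 167 and 141 in pIpC. It fell less than Hoxa9, Hoxa5 or Hoxa10 in these values, to 11.5% of the PBS mean (1271 ± 152 against 146 ± 18.4, SD, n = 3; log2 fold change -3.11 ± 0.16 (SE), limma adjusted p = 3.77e-05). In its exons 20.4% of bases overlap the antisense transcript Hoxaas3.

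Hoxa4, a low-level member, was at 43.3, 49.6 and 66.8 in PBS and at 10.0, 6.1 and 12.6 in pIpC. It kept the largest part of its PBS mean, 18.0% (log2 fold change -2.39 ± 0.36 (SE), limma adjusted p = 0.0025). In pIpC these values rest on 6 to 13 reads a library.

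Hoxa6 was the one member with a split PBS group. It was at 478, 470 and 19.2 in PBS and at 11.0, 14.3 and 3.9 in pIpC. PBS 3 thus lay close to the libraries labelled pIpC, at 4.06% of the mean of PBS 1 and PBS 2, though still above each of them. The log2 fold change was -4.11 with a standard error of 1.25, the widest of the members (limma adjusted p = 0.0416). This call was lost when PBS 1, PBS 2, pIpC 1 or pIpC 3 was left out (limma adjusted p = 0.102, 0.112, 0.107 and 0.139), and without PBS 3 the log2 fold change was -5.62.

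The anterior genes Hoxa3 and Hoxa2 were also lower in every pIpC library. Hoxa3, required for thymus and parathyroid, was at 359, 376 and 234 in PBS and at 8.0, 14.3 and 7.7 in pIpC, which is 3.10% of the PBS mean (log2 fold change -4.90 ± 0.33 (SE), limma adjusted p = 8.38e-05). The M21 model of Hoxa3 runs from 52169062 to 52213336, across Hoxa4, Hoxa5 and Hoxa6, and 27.1% of its exon bases belong also to other genes. Hoxa2, a hindbrain and branchial arch gene, was at 55.4, 37.5 and 67.9 in PBS and at 4.0, 4.1 and 4.8 in pIpC, each of the latter being 4 or 5 reads. Its log2 fold change was -3.33 ± 0.34 (SE; limma adjusted p = 0.000452).

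The fold changes of the low members moved with the pseudocount and the scaling, though none lost its direction. With a pseudocount of 10 the log2 fold change was -2.12 for Hoxa2, -1.69 for Hoxa4, -4.04 for Hoxa3 and -3.31 for Hoxa6, and with quantile normalization it was -4.51, -3.25, -5.58 and -4.92. For Hoxa9 it ranged from -4.38 to -4.23 over the alternatives run, and for Hoxa7 from -3.21 to -3.03.

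**Figure D2:**
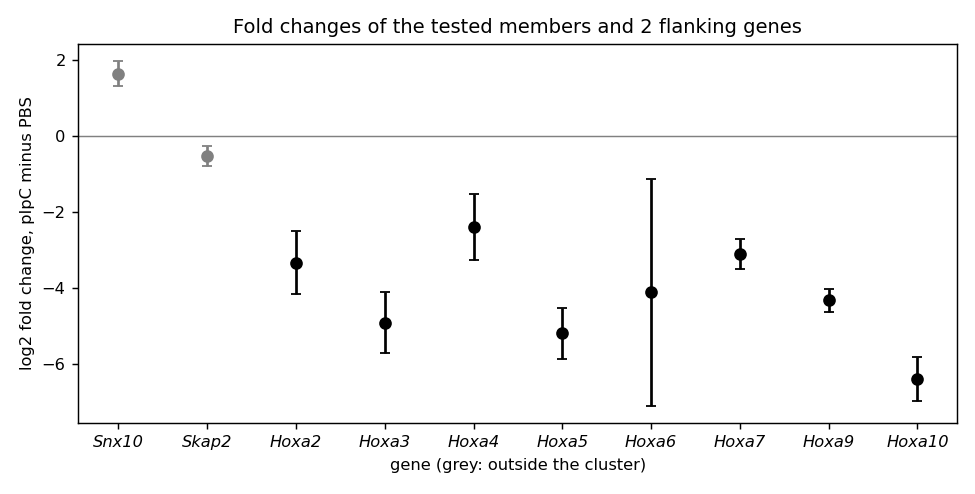
Log2 fold change (pIpC minus PBS) from limma with its 95% interval for the 8 tested members in cluster order (black) and for Snx10 and Skap2, which lie outside the cluster on the Hoxa2 side (grey). All 8 members lie below 0, from -2.39 for Hoxa4 to -6.38 for Hoxa10, while Skap2 is at -0.52 and Snx10 at 1.63.

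The part of the PBS mean that was left in pIpC ranged from 1.16% for Hoxa10 to 18.0% for Hoxa4. To compare the levels of different genes, the normalized counts were divided by the kilobases of exon in M21. In PBS the order of the mean levels was Hoxa9 at 919, Hoxa5 at 774, Hoxa10 at 470, Hoxa7 at 442, Hoxa6 at 369, Hoxa3 at 53.7, Hoxa4 at 33.4, Hoxa2 at 30.2 and Hoxa11 at 2.33 normalized counts per kilobase. Neighbours in this order differed beyond the range of their libraries at 2 places, between Hoxa5 and Hoxa10 and between Hoxa2 and Hoxa11, and overlapped elsewhere.

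In the libraries labelled pIpC the order differed. Hoxa7 was first at 50.8 normalized counts per kilobase, followed by Hoxa9 at 45.9, Hoxa5 at 21.5, Hoxa6 at 11.1, Hoxa4 at 6.00, Hoxa10 at 5.45, Hoxa2 at 2.43, Hoxa3 at 1.66 and Hoxa11 at 0.141. The ranges of Hoxa7 and Hoxa9 overlapped, and both lay above Hoxa5 in every library. With the length of the longest transcript instead, an alternative added after the data were seen, Hoxa9 at 79.4 stood above Hoxa7 at 72.0, Hoxa10 at 6.95 above Hoxa4 at 6.00 and Hoxa3 at 3.86 above Hoxa2 at 2.43, and in PBS Hoxa7 at 626 above Hoxa10 at 599. On the union of exons Hoxa7 made up 12.6% to 16.4% of the summed level per kilobase of the 9 members in PBS and 34.3% to 36.1% in pIpC. Hoxa10 made up 14.0% to 17.1% in PBS and 2.25% to 4.78% in pIpC, whereas Hoxa9 held 28.0% to 31.4% and 29.7% to 35.4%. The share of Hoxa9 overlapped between groups, while in every pIpC library that of Hoxa7 was higher and that of Hoxa10 lower than in any PBS library.

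**Figure D3:**
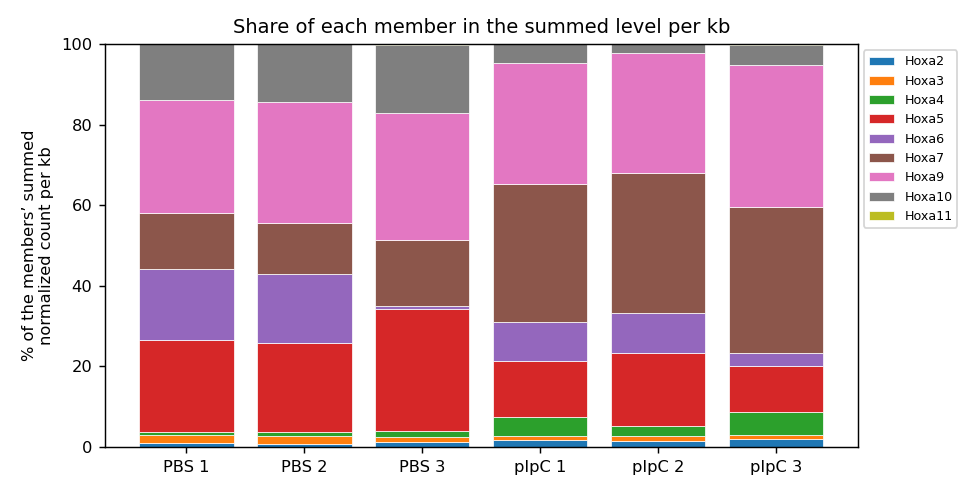
Share of each of the 9 members in their summed normalized count per kilobase of exon, as stacked bars for each library. Hoxa7 takes 12.6% to 16.4% in the PBS bars and 34.3% to 36.1% in the pIpC bars, Hoxa10 shrinks, and Hoxa6 is thin in PBS 3 alone among the PBS bars.

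Whether neighbours changed unequally was tested in the 8 pairs of neighbouring members through the log2 ratio of their counts within each library. A pseudocount of 1 was added to each count. In 6 of the 8 pairs the ratio did not overlap between groups, which was also so in 55.0% of the 14955 pairs of neighbouring tested genes over all chromosomes. The sets are not alike. The member pairs include Hoxa11, which was below the filter, and skip tested transcripts between members, such as Hoxaas2. From Hoxa9 to Hoxa10 the mean log2 ratio was -1.74 ± 0.085 (SD, n = 3) in PBS and -3.80 ± 0.51 in pIpC, a difference of -2.06 ± 0.30 (SE). As plain ratios, Hoxa9 exceeded Hoxa10 by 3.40, 3.51 and 3.13 times in PBS and by 11.2, 22.5 and 12.6 times in pIpC. From Hoxa7 to Hoxa9 the log2 ratio went from 2.02 ± 0.17 to 0.81 ± 0.10, a difference of -1.21 ± 0.11 (SE).

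Of the remaining pairs, Hoxa2 to Hoxa3 and Hoxa4 to Hoxa5 had lower ratios in pIpC, by -1.57 ± 0.53 and -2.79 ± 0.57 (SE) on the log2 scale. Hoxa3 to Hoxa4 was higher by 2.51 ± 0.66 and Hoxa10 to Hoxa11 by 4.29 ± 0.59, the latter resting on a gene with 1 read in pIpC and moving to 2.18 with a pseudocount of 0.1 and 5.28 with one of 10. The pairs that include Hoxa6 overlapped. Each of the 6 separated pairs had an exact 2-sided permutation p = 0.1, the smallest that 3 against 3 libraries allows, and an adjusted p of 0.133 over the 8 pairs, so none could pass a threshold of 0.1. The Hoxa5 to Hoxa6 and Hoxa6 to Hoxa7 pairs had exact permutation p = 1 and p = 0.6.

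The drop of Hoxa6 in PBS 3 was shared by part of the cluster. By normalized count, 7 of the 9 members were highest in PBS 3 of the PBS libraries. They ran from 105% of the mean of the others for Hoxa9 to 146% for Hoxa2 and, on 9 reads, 352% for Hoxa11. Hoxa3 and Hoxa6 were lowest in PBS 3, at 63.8% and 4.06%. As a share of all reads, the 9 members together were lowest in PBS 3, at 0.0439%, beside 0.0512% in PBS 1 and in PBS 2. The place of PBS 3 among the PBS libraries thus depends on the scaling by size factors. The antisense transcripts Hoxaas3 and Hoxaas2 were at 6.68% and 37.6%, and 5730596B20Rik, which overlaps an exon of Hoxa3, was at 8.89%.

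The transcripts that were low in PBS 3 interleave with members that were not, since Hoxa4 and Hoxa5 lie between 5730596B20Rik and Hoxa6. The exon lengths of those lower in PBS 3 were 874 bases for Hoxa6, 2889 for Hoxaas3, 3354 for 5730596B20Rik, 3361 for Hoxaas2 and 6014 for Hoxa3. Those of the members higher in PBS 3 were 1594 to 2287 for Hoxa2, Hoxa4, Hoxa5 and Hoxa11, and 2876, 3270 and 5580 for Hoxa7, Hoxa10 and Hoxa9. Over all tested genes, PBS 3 had lower counts of those with long exons and higher counts of those with short exons, as given above. Hoxa6, with 874 bases, has the shortest exons of these transcripts and was low in PBS 3. The part of exon length in these levels was not tested.

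**Figure D4:**
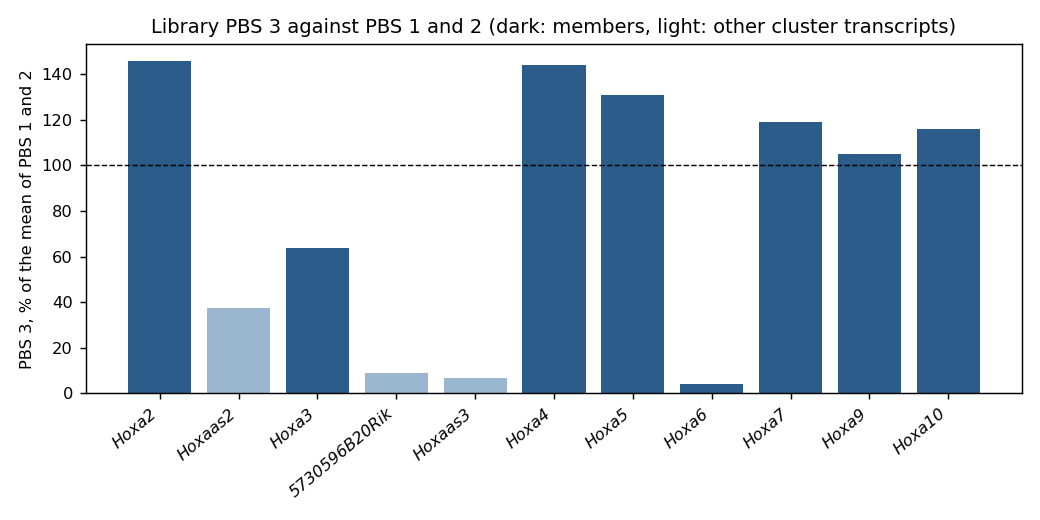
Normalized count in PBS 3 as a percentage of the mean of PBS 1 and PBS 2, for members (dark bars) and other cluster transcripts (light bars) in cluster order, with a dashed line at 100%. Hoxa6, Hoxaas3 and 5730596B20Rik are below 10%, while Hoxa4, Hoxa5, Hoxa7, Hoxa9 and Hoxa10 are above 100%.

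The other genes of the cluster had few reads. Of 8 measured, 3 were tested, and 2 of the 3 were called lower and 0 higher, with a median log2 fold change of -2.97. Both that were called, Hoxaas2 and 5730596B20Rik, reached the filter only through the PBS libraries. Hoxaas2 was at 45.9, 38.5 and 15.8 in PBS and at 6.0, 0 and 1.0 in pIpC (log2 fold change -3.72 ± 0.80 (SE), limma adjusted p = 0.0109). Hoxaas3 was at 92.6, 144.7 and 7.9 in PBS and at 11.0, 8.2 and 18.4 in pIpC, so its groups overlapped (limma adjusted p = 0.182). It was called lower when PBS 3 was left out (limma adjusted p = 0.000132), with quantile normalization (0.0439), by edgeR (adjusted p = 0.0577) and by DESeq2 (adjusted p = 0.00784).

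5730596B20Rik was at 83.9, 68.8 and 6.8 in PBS and at 5.0, 7.2 and 1.0 in pIpC, with overlapping groups. It was called lower at a limma adjusted p of 0.0616 and lost that call when PBS 1, PBS 2, pIpC 1, pIpC 2 or pIpC 3 was left out (limma adjusted p from 0.1 to 0.187). Hoxa13, the gene at the posterior end of the cluster, did not exceed 0.9 normalized counts in any library. The Hoxa13 neighbour Hottip reached 1.7 in one PBS library and was listed at 0 in the others. Mir196b, whose 85 bases all lie within exons of Hoxa9, and Gm28308, whose exon bases are all shared with other genes, were listed at 0 in all 6 libraries.

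The genes that flank the cluster were called in either direction or not called. Of 10 flanking genes, 7 were tested, 1 was called higher, 1 lower and 5 were not called, with a median log2 fold change of 0.09. Across all tested genes 25.0% were called higher and 20.4% lower. Skap2, an adaptor protein of leukocytes on the Hoxa2 side, was at 6545, 6078 and 6434 in PBS and at 4462, 4520 and 4302 in pIpC (log2 fold change -0.52 ± 0.11 (SE), limma adjusted p = 0.0101). Snx10, a sorting nexin on the same side, was at 557, 429 and 521 in PBS and at 1549, 1571 and 1535 in pIpC (log2 fold change 1.63 ± 0.14 (SE), limma adjusted p = 0.000197). Evx1 and Evx1os, at the Hoxa13 end, were listed at 0 in all libraries.

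Genes of the other Hox clusters had few reads in PBS, and the 2 tested Hoxb genes rose in pIpC. Of the 10 Hoxb genes 2 were tested, and both were called higher in pIpC. Hoxb4, which promotes the expansion of blood stem cells, was at 8.7, 6.1 and 12.4 in PBS and at 374, 440 and 366 in pIpC (log2 fold change 5.34 ± 0.30 (SE), limma adjusted p = 4.3e-05). Hoxb3 was at 0.9, 0 and 0 in PBS and at 25.0, 26.6 and 37.7 in pIpC. Both reached the filter only through the libraries labelled pIpC. Below the filter and on few reads, Hoxb1, Hoxb2, Hoxb5, Hoxb6 and Hoxb7 were also higher in every pIpC library than in any PBS library. Hoxb2, for example, was at 0 in PBS and at 9.0, 29.6 and 12.6 in pIpC. Hoxb13, also below the filter, had overlapping groups, at 0, 8.1 and 18.1 in PBS and 0 in every pIpC library.

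Summed normalized counts of the Hoxb cluster were 14.7 to 31.7 in PBS and 427 to 528 in pIpC, which overlaps the range of the Hoxa members' sum in pIpC. None of the 9 Hoxc and 9 Hoxd genes reached the filter. The Hoxc sum was at most 2.26 in PBS and 2.99 to 38.7 in pIpC, and the Hoxd sum, all of it from Hoxd8, was 1.01 to 5.66 in PBS and 0 in every library labelled pIpC.

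Partners of HOX proteins moved in both directions. Of the 9 TALE genes 8 were tested, 3 were called lower, 3 higher and 2 were not called, with a median log2 fold change of -0.26. Of those called lower, 1 reached the filter only through the PBS libraries. Of those called higher, 1 reached it only through the libraries labelled pIpC. Among all tested genes 20.4% were called lower and 25.0% higher. Meis1, the partner that speeds leukemia driven by Hoxa9, was at 3890, 3839 and 3131 in PBS and at 227, 239 and 206 in pIpC (log2 fold change -4.01 ± 0.14 (SE), limma adjusted p = 1.68e-05). Pbx3, another partner in MLL-fusion leukemia, was at 3222, 2997 and 2795 in PBS and at 94.8, 131.8 and 91.9 in pIpC (log2 fold change -4.83 ± 0.18 (SE), limma adjusted p = 1.68e-05). These falls were of the size of those of Hoxa9 and Hoxa3.

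Other TALE genes rose. Pbx2 was at 1438, 1425 and 1522 in PBS and at 3068, 3320 and 3121 in pIpC (log2 fold change 1.12 ± 0.11 (SE), limma adjusted p = 0.000322). Pknox2 was listed at 0, 1.0 and 0 in PBS and at 64.9 to 99.1 in pIpC, and reached the filter only through the latter.

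**Figure D5:**
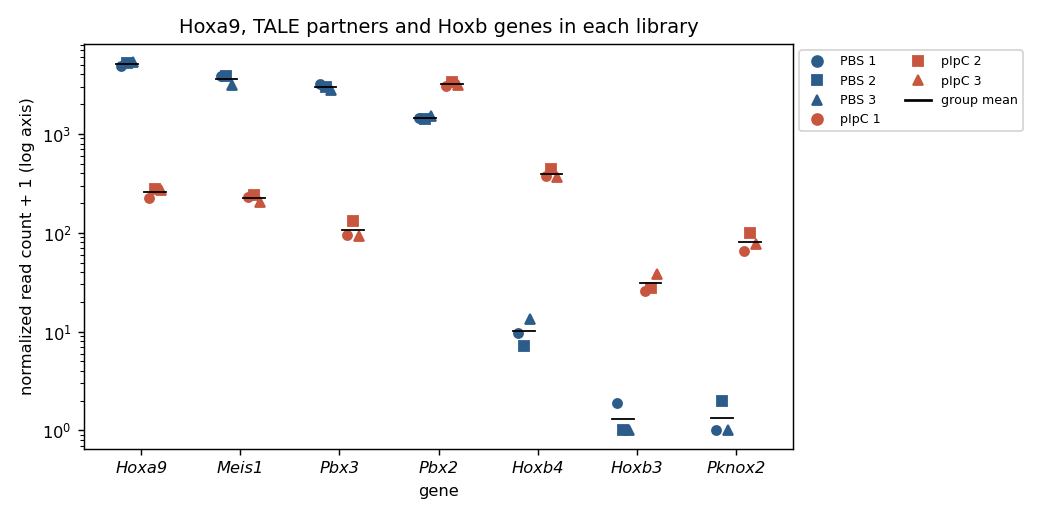
Normalized read count plus 1, on a log axis, of Hoxa9, the TALE genes Meis1, Pbx3, Pbx2 and Pknox2, and Hoxb4 and Hoxb3 in each of the 6 libraries, with a bar at each group's mean. Meis1 and Pbx3 lie lower in pIpC as Hoxa9 does, and Pbx2, Pknox2, Hoxb4 and Hoxb3 lie higher.

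Genes known as targets of HOXA9 and MEIS1 were called in both directions, more of them lower than higher. Of 15 tested, 8 were called lower, 3 higher and 4 were not called, with a median log2 fold change of -0.48. Of those called lower, 1 reached the filter only through the PBS libraries. Of those called higher, 1 reached it only through the libraries labelled pIpC. The shares over all tested genes were 20.4% lower and 25.0% higher. The largest fall was that of Eya1, a transcriptional coactivator, which was at 1478, 1583 and 957 in PBS and at 79.8, 68.5 and 51.3 in pIpC (log2 fold change -4.30 ± 0.26 (SE), limma adjusted p = 5.49e-05). Mecom, a stem cell regulator also active in leukemia, was the largest rise, at 0.9, 0 and 0 in PBS and 35.8 to 41.9 in pIpC. Mecom reached the filter only through the libraries labelled pIpC.

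Known regulators of the cluster had median fold changes near 0. Of 14 genes in a list of MLL, DOT1L and associated factors, 4 were called higher, 0 lower and 10 were not called, with a median of 0.28. This list also holds elongation factor genes, such as Cdk9 and Ccnt1, and Ctcf, so not all of its members write active marks. Over all tested genes 25.0% were called higher and 20.4% lower. The largest rise was that of Mllt3, the mouse gene for AF9, from 47.6, 50.6 and 69.0 in PBS to 180, 175 and 198 in pIpC (log2 fold change 1.72 ± 0.22 (SE), limma adjusted p = 0.00117). Of 13 Polycomb genes, whose products silence Hox clusters, 0 were called higher, 2 lower and 11 were not called, with a median of -0.11, and Cbx8 fell the most, by 1.04 ± 0.20 (SE; limma adjusted p = 0.00696). Without PBS 3, where the calls rose to 65.4% of all tested genes, the MLL and DOT1L list had 5 calls higher and 2 lower, and the Polycomb list 1 higher and 4 lower.

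The genes outside the cluster whose profile over the 6 libraries was most like that of Hoxa9 were ranked by the root mean square distance between centred log2 values, among 10481 genes whose mean count reached 100. In order they were E330020D12Rik at 0.192, Rspo1, a WNT pathway agonist, at 0.226, A530010L16Rik at 0.228, Meis1 at 0.235 and Bcas1 at 0.241. Of the members, Hoxa3 at 0.436 and Hoxa5 at 0.517 were the nearest to Hoxa9 and Hoxa6 at 1.63 the farthest. Meis1 was thus closer to Hoxa9 in profile than any other Hoxa gene. This is a description over 6 libraries in 2 groups and carries no test.

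Markers of other blood cells moved with the fall of the Hoxa genes, and their part in it was not tested. All 14 erythroid markers, 11 of 11 B cell markers, 12 of 13 neutrophil markers and 6 of 6 tested megakaryocyte markers were called higher in the libraries labelled pIpC, beside 25.0% of all tested genes. Of these, 12 erythroid, 8 B cell and 3 megakaryocyte markers had PBS means under 10 and reached the filter only through the libraries labelled pIpC. Summed normalized counts went from 74624 to 152501 in PBS to 2218529 to 2302943 in pIpC for neutrophil markers, from 36.3 to 60 in PBS to 5918 to 8268 in pIpC for erythroid markers, and from 1784 to 3003 in PBS to 10807 to 40683 in pIpC for B cell markers. The megakaryocyte sum was 358 to 542 in PBS and 1495 to 2242 in pIpC. Rhag and Slc4a1 of the red cell membrane, Ms4a1 of B cells and Gp6 and Ppbp of platelets were at 0 in all PBS libraries and had at least 17 reads in each library labelled pIpC. Marco of macrophages and Gp1bb of platelets were at 0 in PBS and had 2 reads each over the libraries labelled pIpC.

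Of 9 stem cell markers, 7 were tested, 5 of them with PBS means under 10, and 6 were called higher. For this list and those that follow, the shares over all tested genes were 25.0% higher and 20.4% lower. The sum of the 9 stem cell markers was 817 to 1374 in PBS and 1614 to 1935 in pIpC. Of 7 tested T and NK cell markers 6 were called higher and Bcl11b lower, with sums of 738 to 756 and 3914 to 4537, most of the PBS sum being Bcl11b, at 428 to 566, and most of the pIpC sum Nkg7, at 3702 to 4312. Of the 6 called higher, 5 reached the filter only through the libraries labelled pIpC, and Bcl11b reached it only through the PBS libraries. Among 9 tested macrophage markers 7 were called higher and 2, Vcam1 and Adgre1, lower, with sums of 10336 to 14633 and 6530 to 8430. Of the 7 called higher, 1 reached the filter only through the libraries labelled pIpC. Vcam1 made up most of both sums, at 6015 to 9984 in PBS and 3909 to 5096 in pIpC. Adgre1, which encodes F4/80, was at 4155 to 4427 in PBS and 268 to 356 in pIpC. Ptprc, the CD45 antigen of leukocytes, was present in every library, at 4490 to 7558 in PBS and 11839 to 13597 in pIpC, and Kit, which encodes c-Kit, was at 3912 to 7764 and 4156 to 4588. Of 9 myeloid and blast markers, 3 were called higher, 2 lower and 4 were not called, with sums of 54456 to 65142 and 47966 to 52139. Cd34 was at 4756 to 5799 in PBS and 1950 to 2099 in pIpC. The cells labelled GFP+ thus differed between groups in far more than the Hoxa genes, and in the libraries labelled pIpC markers of several mature blood lineages were present that PBS libraries had at or near 0.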

How the data were processed

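The authors deposited a table of normalized counts, a signal made from read counts divided by 1 size factor per library. Per the labels the reads were mapped to GRCm38 with HISAT2 2.2.1 and counted with featureCounts, whereas the study's methods name STAR, RSEM and DESeq2; which made the table is not stated. Every value above 0 was a whole multiple of 1 read within 0.01 reads (100% of values in each library), so reads were recovered by division. Symbols were found for 55141 of 55487 genes, and positions and exon lengths came from GENCODE M21. limma 3.58.1 (R 4.3.3; intensity trend, Benjamini-Hochberg adjustment over 15020 genes) was the main test; edgeR 4.0.16 and DESeq2 1.42.0 on the recovered reads were alternatives. The scripts were tested on simulated data. No column of values was left out. The members, lists and tests were chosen with earlier results of these data known. Genes named were the members, Brd9, other cluster genes, Meis1, Pbx3, the largest rise and fall past the threshold in each list, and the 5 genes nearest Hoxa9. Pbx2, Pknox2, Hoxb3, Xist, Ptprc, Kit, Vcam1 and the markers at 0 were named after their values were seen. Libraries of a group differed by more than sampling noise. A few items that these rules would name are not reported here.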

Additional observations from a re-analysis of the deposited data

How the results depend on the processing

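All 8 tested Hoxa members kept their direction under every alternative run. The count of members called lower was 8 in the main test, 9 with no filter, 6 with a minimum mean of 50, which removes Hoxa2 and Hoxa4, and 7 to 8 with 1 library left out, the lost member being Hoxa6. Over all genes, 6808 passed, 55.1% of them higher; quantile normalization gave 7322, 44.3% of them higher, edgeR 6901, DESeq2 7451, and leaving out 1 library 4551 to 9829, the highest without PBS 3. A replicate block gave 6095 genes and 8 members, with Brd9 at a log2 fold change of 0.20, and changed no call on a member; the numbers are not stated to mark shared recipients, the deviations of same-numbered libraries correlated at -0.117, 0.143 and 0.041, and 2 of 6 libraries correlated best with their own number. The difference between groups (pIpC minus PBS) in the log2 ratio of Hoxa6 to Hoxa5 reversed from 1.07 to -0.57 without PBS 3, the lowest of -0.57 to 1.91 with 1 library left out. Low counts limit Hoxa2, Hoxa3, Hoxa4, Hoxa6 and Hoxa11, which rest on at most 14 reads in each library labelled pIpC, and Hoxa10, on 12 to 22.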
